A study of Saccharomyces cerevisiae with 4 samples.

Results

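The genes that encode the enzymes of glycolysis and alcoholic fermentation were followed in wild-type 59A and in its sch9-deleted mutant. The 33 genes are those of the pathway from the phosphorylation of hexoses to ethanol, together with the enzymes that set fructose 2,6-bisphosphate and the enolase-related genes, and each was found by its symbol in the array annotation. All 33 were measured, each by 1 probe, among 6226 features in all. Glycolysis splits a hexose into pyruvate, and in fermentation pyruvate decarboxylase and alcohol dehydrogenase turn pyruvate into ethanol, which regenerates the NAD that glycolysis uses. Yeast carries several isoenzymes for most steps. Some of them are the main forms in sugar-rich growing cells, whereas others are known from glucose-poor, stationary or stressed cells. The strain 59A is a haploid spore derivative of the wine yeast EC1118, and in the mutant a KanMX cassette replaces the open reading frame of *SCH9*, a protein kinase downstream of TORC1. The labels name a single sch9-deleted strain and do not say how many clones were used. Both strains fermented without oxygen at 24°C in synthetic medium with 230 g/L of glucose and fructose, 142 mg/L of assimilable nitrogen and 5% lipid factors, although the methods name SM71 as well as SM142, and both were sampled at the same amount of released CO2.

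RNA was measured on 4 one-colour arrays, 2 of each strain, which the labels call biological replicates 1 and 2. The deleted gene *SCH9* read 8.72 and 8.67 on the log2 scale in wild-type replicates 1 and 2 against 5.81 and 5.67 in the mutant, where at most 6.02% of the probes lay below it. Of the markers of mating type, all 7 of a cells and 3 of 4 of alpha cells were higher in the mutant. The 3 alpha markers rose on the log2 scale by 2.38 in *SAG1*, 1.15 in *MF(ALPHA)2* and 0.32 in *MF(ALPHA)1*. *MF(ALPHA)1* had 0.225% of the probes below it in the wild type. The remaining alpha marker, the receptor gene *STE3*, lay between 5.69 and 5.74 on the 4 arrays. Of 4 markers of haploid cells 2 were higher and 0 lower. Values are log2 intensities, normalised between arrays by quantiles by the authors, and a log FC is the mean of the mutant minus that of the wild type on the log2 scale. A gene counted as lower or higher at an adjusted p under 0.05 (limma, Benjamini-Hochberg over all 6226 features) at any log FC, and as down- or up-regulated if the log FC was also beyond 1 in size. By these criteria 12.1% of all features were lower and 14.6% higher, and 1.64% were down-regulated and 2.18% up-regulated. Precision is limited by having 4 arrays.

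The sch9 mutant had 8 lower and 4 higher genes out of 33, and 21 did not pass. The lower ones were *HXK2*, *PFK1*, *PFK27*, *TDH2*, *TDH3*, *ENO2*, *PDC5* and *PDC6*, and the higher ones were *GLK1*, *GPM3*, *ERR1* and *ERR2*. The share that was lower was 24.2%, against 12.1% of all features, and the share that was higher was 12.1%, against 14.6%. In either direction 36.4% passed, against 26.7%. Only *ERR1* and *ERR2* were up-regulated beyond a log FC of 1, and 0 of the 33 genes were down-regulated beyond it. At an unadjusted p under 0.05 in limma 12 genes were lower and 6 higher, against 1307 and 1313 of 6226 features. The median log FC of the 33 genes was -0.08, against -0.01 over all features. The 2 arrays of one strain did not overlap those of the other in 26 genes, which were lower in the mutant in 16 and higher in 10, that is in 48.5% and 30.3% of the genes against 35.8% and 33.7% of all features. The median distance between the replicates of these genes was 0.15 for the wild type and 0.09 for the mutant. Over all features the corresponding values were 0.12 and 0.07. With 1 array of the mutant left out, the calls of most of these genes were lost, and fewer of all features passed as well. Only 2 genes were lower and 2 higher without replicate 1 of the mutant, and 1 lower and 2 higher without replicate 2. With 1 array of the wild type left out, more of the 33 genes passed, and more of all features passed as well. Such a fit leaves 1 array in a strain, which is assumed to vary like those of the other strain. With the slide position as a covariate *TDH2*, *TDH3*, *ENO2* and *PDC5* lost their calls, at adjusted p from 0.0630 to 0.0994, and *TDH2* did so with an intensity trend as well (adjusted p = 0.0513).

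**Figure D1:**
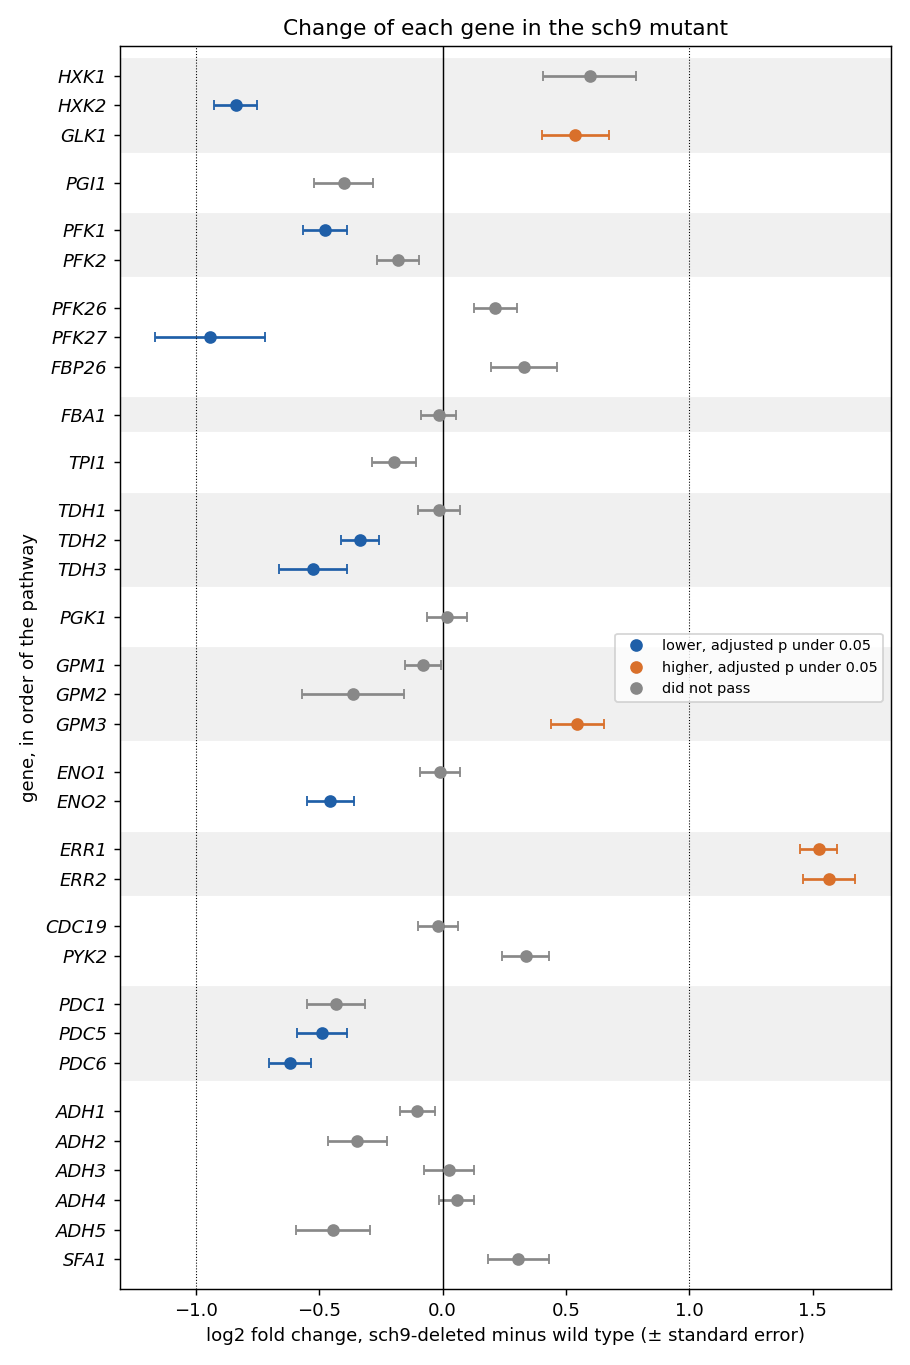
Log FC of the 33 genes in the order of the pathway, as sch9-deleted minus wild type on the log2 scale. Points are estimates with standard errors, colours give the call at an adjusted p under 0.05, shaded bands separate the steps and dotted lines mark a log FC of -1 and 1; *ERR1* and *ERR2* lie beyond 1, at 1.53 and 1.57, and the other genes between -0.94 and 0.60.

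At hexose phosphorylation *HXK2* was lower and *GLK1* higher in the mutant. *HXK2* encodes the main hexokinase of cells growing on abundant glucose and also acts in glucose repression. Its log2 intensity was 10.48 and 10.47 in wild-type replicates 1 and 2 against 9.72 and 9.55 in the mutant, the order kept for all pairs of values that follow. Both mutant arrays lay below both wild-type arrays by more than the replicates of a strain differed, at a log FC of -0.84 (standard error, SE, 0.09; limma, adjusted p = 0.00433), which is a 1.79-fold lower intensity. *GLK1*, the glucokinase, which phosphorylates glucose but not fructose, had 11.77 and 12.12 in the wild type against 12.42 and 12.55 in the mutant. It was higher at a log FC of 0.54 (SE 0.14, adjusted p = 0.0409). *HXK1*, the hexokinase known from cells with little glucose, had 12.04 and 12.55 in the wild type against 12.76 and 13.03 in the mutant. Its arrays did not overlap between the strains either, but the wild-type arrays differed by 0.51, and the log FC of 0.60 (SE 0.19, adjusted p = 0.0718) did not pass. The call of *HXK2* held in all 13 alternatives, whereas *GLK1* had adjusted p = 0.112 and 0.243 without replicates 1 and 2 of the mutant in limma. *HXK1* passed at a log FC of 0.85 (adjusted p = 0.00374) without replicate 2 of the wild type, and had 0.34 (adjusted p = 0.0754) without replicate 1.

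The ratio between these genes within an array differed between the strains. The log2 ratio of *HXK1* to *HXK2* was 1.56 and 2.08 in the wild type against 3.03 and 3.47 in the mutant, higher by 1.44 (SE 0.34) or 2.71-fold. That of *GLK1* to *HXK2* was 1.29 and 1.65 in the wild type against 2.69 and 3.0 in the mutant, higher by 1.38 (SE 0.24). For both pairs the arrays of the strains did not overlap. The ratio of *HXK1* to *GLK1* overlapped between the strains and differed by 0.06 (SE 0.10). An exact permutation test of such a ratio over 2 arrays against 2 cannot give a two-sided p below 0.333, and both shifts against *HXK2* had that value. Ratios between probes depend on the probes, so that only their shift between strains is compared here. The SE of a ratio comes from that ratio alone, on 2 arrays of each strain. That of a log FC is moderated by limma over all features, so the SE of ratios and of log FC are not alike.

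At the next steps the genes had negative log FC, apart from part of those that set fructose 2,6-bisphosphate. *PGI1*, phosphoglucose isomerase, had 13.89 and 14.21 in the wild type against 13.62 and 13.68 in the mutant, a log FC of -0.40 (SE 0.12) that did not pass at adjusted p = 0.0626. Phosphofructokinase, which commits the sugar to glycolysis, has an alpha subunit encoded by *PFK1* and a beta subunit encoded by *PFK2*. *PFK1* had 13.22 and 13.39 in the wild type against 12.86 and 12.79 in the mutant, and was lower at a log FC of -0.48 (SE 0.09, adjusted p = 0.0195). *PFK2* had 12.57 and 12.48 against 12.27 and 12.41. Its arrays also lay apart, and its log FC of -0.18 (SE 0.09, adjusted p = 0.177) did not pass. The ratio of *PFK1* to *PFK2* differed by -0.30 (SE 0.16) with the arrays of the strains apart.

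*PFK26* and *PFK27* encode the kinases that make fructose 2,6-bisphosphate, an activator of phosphofructokinase, and *FBP26* a phosphatase that degrades it. *PFK27*, known to be induced by sugars, had 11.22 and 10.56 in the wild type against 10.06 and 9.84 in the mutant. It was lower at a log FC of -0.94 (SE 0.22, adjusted p = 0.0350), beside a distance of 0.66 between the wild-type arrays. Leaving out wild-type replicate 1 gave a log FC of -0.61 and leaving out wild-type replicate 2 gave -1.27, and it passed in both (adjusted p = 0.00994 and 0.000896). The corresponding values were 9.97 and 10.07 against 10.17 and 10.31 for *PFK26*, and 9.60 and 9.98 against 10.13 and 10.12 for *FBP26*. Neither passed, with a log FC of 0.21 (SE 0.09, adjusted p = 0.126) in *PFK26* and of 0.33 (SE 0.14, adjusted p = 0.127) in *FBP26*. The log2 ratio of *PFK26* to *PFK27* was -1.24 and -0.49 in the wild type against 0.11 and 0.47 in the mutant, higher by 1.16 (SE 0.42). *PFK1* and *PFK27* lost their calls when either mutant array was left out, with adjusted p from 0.0984 to 0.179 in *PFK1* and from 0.0781 to 0.182 in *PFK27*. *PGI1* had a log FC of -0.56 without replicate 1 of the wild type and passed there (adjusted p = 0.00462), as *FBP26* did at 0.52 without replicate 2 (adjusted p = 0.00376). With the other wild-type array left out instead, *PGI1* had -0.24 (adjusted p = 0.0503) and *FBP26* 0.14 (adjusted p = 0.190).

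**Figure D2:**
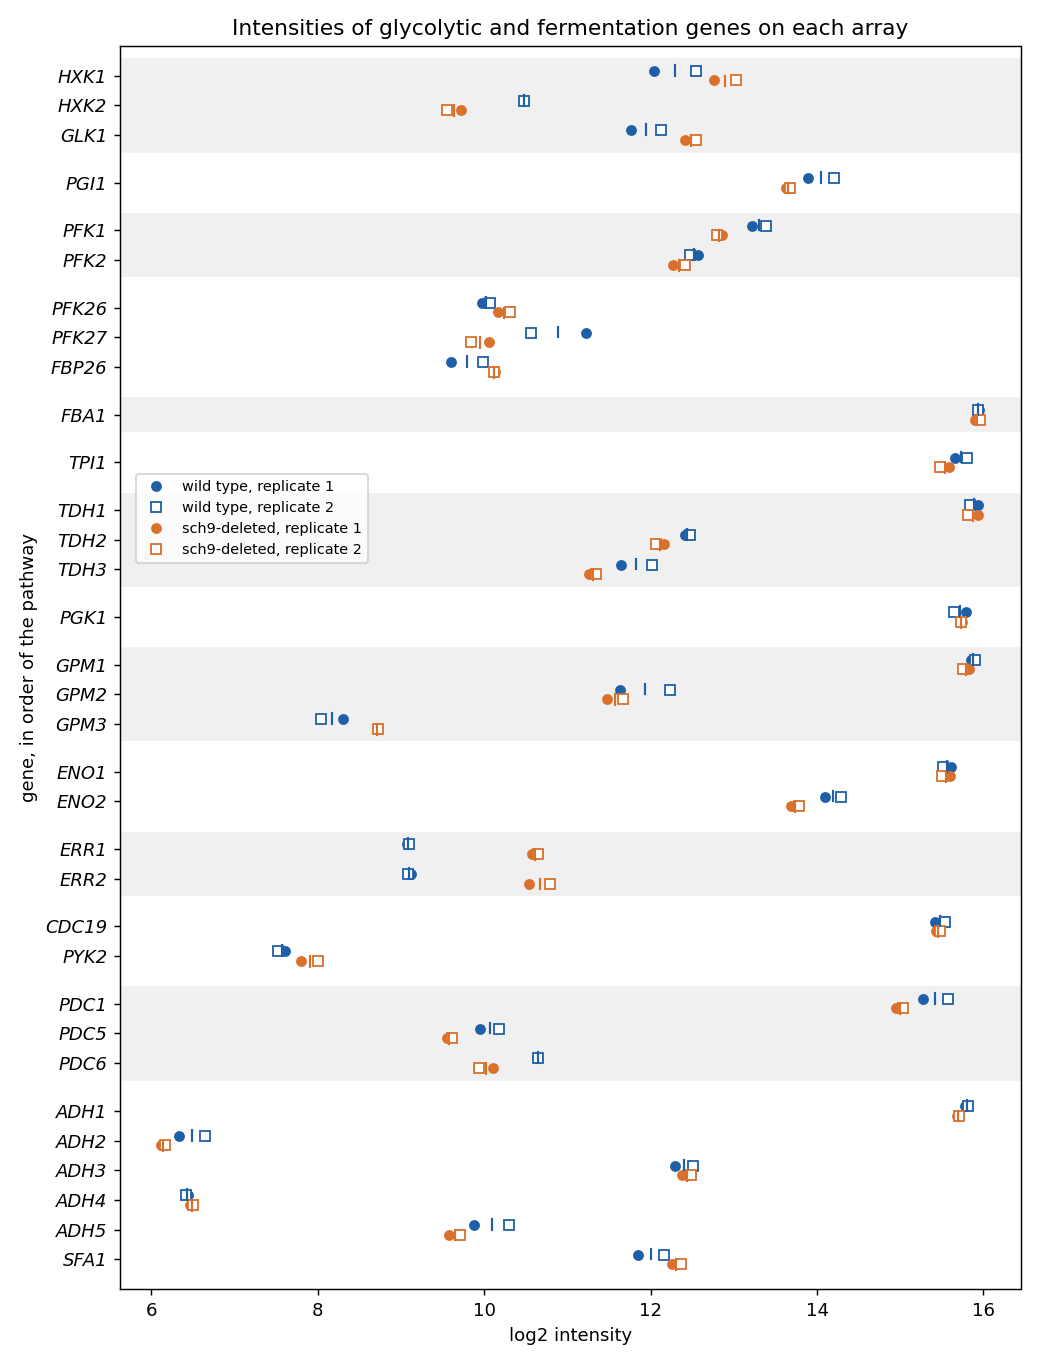
Log2 intensity (horizontal axis) of each of the 33 genes on each of the 4 arrays, wild type in blue and sch9-deleted in orange, with filled circles for replicate 1, open squares for replicate 2 and short bars for the mean of a strain. *ERR1* and *ERR2* rose from between 9.07 and 9.11 to between 10.54 and 10.79. The log FC of the 9 genes with a mean above 15 lay between -0.43 and 0.02, with *PDC1* the lowest. Positions of different genes are those of different probes and are not levels to be compared.

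In the middle of the pathway, from aldolase to phosphoglycerate kinase, only *TDH2* and *TDH3* passed. *FBA1*, the single aldolase, ranged from 15.90 to 15.95 over the 4 arrays, with a log FC of -0.02 (SE 0.07). *TPI1*, triosephosphate isomerase, had 15.65 and 15.81 in the wild type against 15.58 and 15.48 in the mutant, a log FC of -0.20 (SE 0.09, adjusted p = 0.159). Glyceraldehyde-3-phosphate dehydrogenase, which gives the first NADH of the pathway, has 3 isoenzymes. *TDH2* had 12.41 and 12.47 in the wild type against 12.16 and 12.06 in the mutant and was lower at a log FC of -0.33 (SE 0.08, adjusted p = 0.0323). *TDH3*, the main form in growing cells, had 11.64 and 12.02 against 11.26 and 11.34 and was lower at -0.53 (SE 0.14, adjusted p = 0.0449). The third isoenzyme gene, *TDH1*, known from stationary cells, ranged from 15.81 to 15.94 with overlapping strains and a log FC of -0.01 (SE 0.08, adjusted p = 0.921). The ratio of *TDH1* was higher by 0.32 (SE 0.08) against *TDH2* and by 0.51 (SE 0.26) against *TDH3*, with the strains apart in both, whereas that of *TDH2* to *TDH3* overlapped. Whether *TDH2* and *TDH3* share signal on a probe was not tested, so they need not be independent measurements. *PGK1*, phosphoglycerate kinase, lay between 15.64 and 15.78 (log FC 0.02). *TDH2* had adjusted p = 0.146 and 0.306 and *TDH3* 0.182 and 0.188 without replicates 1 and 2 of the mutant. The log FC of *TDH3* was -0.72 when wild-type replicate 1 was left out and -0.34 when replicate 2 was. That of *TPI1* was -0.27 (adjusted p = 0.0484) without replicate 1 of the wild type and -0.12 (adjusted p = 0.292) without replicate 2. The sign of the log FC of *FBA1* and *TDH1* turned when arrays were scaled to their 75th percentile, to 0.00180 and 0.00218.

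Of the phosphoglycerate mutase genes, *GPM1* encodes the working enzyme, and *GPM2* and *GPM3* are homologues without a clear role in the pathway. *GPM3* had 8.31 and 8.03 in the wild type against 8.71 and 8.73 in the mutant, and was higher at a log FC of 0.55 (SE 0.11, adjusted p = 0.0225). *GPM1* ranged from 15.76 to 15.90 with a log FC of -0.08 (SE 0.07). *GPM2* had 11.63 and 12.23 in the wild type against 11.47 and 11.66 in the mutant, so that the strains overlapped and the log FC of -0.36 (SE 0.21, adjusted p = 0.241) did not pass. The ratio of *GPM2* to *GPM3* was lower by 0.91 in the mutant (SE 0.45), with the strains apart. *GPM3* had adjusted p = 0.105 and 0.162 without replicates 1 and 2 of the mutant, and *GPM2* passed at a log FC of -0.67 (adjusted p = 0.00626) without replicate 1 of the wild type and had -0.06 (adjusted p = 0.664) without replicate 2.

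The enolase step held the highest log FC of the 33 genes. *ERR1* and *ERR2* are enolase-related genes whose products can act as enolases, and they are near-identical copies. *ERR1* had 9.07 and 9.10 in the wild type against 10.57 and 10.65 in the mutant. *ERR2* had 9.11 and 9.08 against 10.54 and 10.79. Both mutant arrays lay far above both wild-type arrays in each gene, with a log FC of 1.53 (SE 0.07, adjusted p = 4.6e-04) in *ERR1* and of 1.57 (SE 0.11, adjusted p = 0.00122) in *ERR2*, or 2.88-fold and 2.97-fold. Their ratio on an array stayed between -0.14 and 0.03. As the copies may share signal on a probe, they need not be independent measurements. Both calls held in all 13 alternatives.

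Among the enolases proper, *ENO2*, the form of glucose-grown cells, had 14.10 and 14.28 in the wild type against 13.69 and 13.78 in the mutant, and was lower at a log FC of -0.45 (SE 0.09, adjusted p = 0.0256). *ENO1*, known from cells that have left growth on glucose, had 15.61 and 15.52 against 15.60 and 15.51, a log FC of -0.01 (SE 0.08) whose sign turned to 0.00624 with another quantile normalisation and to 0.00582 with scaling to the 75th percentile. The ratio of *ENO1* to *ENO2* was higher by 0.44 (SE 0.17) with the strains apart. The ratios of *ERR1* and *ERR2* to *ENO2* were higher by 1.98 (SE 0.08) and 2.02 (SE 0.14), the largest of the 24 pairs compared. *ENO2* had adjusted p = 0.158 and 0.153 without replicates 1 and 2 of the mutant.

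The pyruvate kinase genes did not pass, whereas pyruvate decarboxylase was lower in part. *CDC19*, the main pyruvate kinase, ranged from 15.41 to 15.53 with overlapping strains and a log FC of -0.02 (SE 0.08). *PYK2*, which is repressed by glucose, had 7.61 and 7.52 in the wild type against 7.80 and 8.0 in the mutant. The strains did not overlap, and the log FC of 0.34 (SE 0.10, adjusted p = 0.0554) lay just beyond the threshold. It passed without replicate 1 of the wild type (adjusted p = 0.0343) and with another quantile normalisation (adjusted p = 0.0488) or an intensity trend (adjusted p = 0.0498). The ratio of *PYK2* to *CDC19* was higher by 0.36 (SE 0.13) with the strains apart.

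Pyruvate decarboxylase, the first enzyme that is particular to fermentation, is encoded mainly by *PDC1*, with *PDC5* and *PDC6* as minor forms. *PDC6*, a form known from sulphur limitation, had 10.63 and 10.65 in the wild type against 10.11 and 9.94 in the mutant, and was lower at a log FC of -0.62 (SE 0.09, adjusted p = 0.00949). *PDC5* had 9.95 and 10.18 against 9.55 and 9.61 and was lower at -0.49 (SE 0.10, adjusted p = 0.0249). *PDC1* had 15.27 and 15.58 against 14.95 and 15.03. Its log FC of -0.43 (SE 0.12) missed the threshold at adjusted p = 0.0510, and passed when arrays were centred on their medians (adjusted p = 0.0492) or the dimmest features were left out (adjusted p = 0.0469). Both mutant arrays lay below both wild-type arrays in all 3 genes, as in 35.8% of all features, and the 3 log FC were close to each other. The ratio differed between the strains by -0.06 (SE 0.04) for *PDC5* to *PDC1*, by -0.19 (SE 0.19) for *PDC6* to *PDC1* and by -0.13 (SE 0.16) for *PDC6* to *PDC5*, and the strains overlapped in the last pair and in *PDC6* to *PDC1*. *PDC5* lost its call with either mutant array left out (adjusted p = 0.140 and 0.156), and *PDC6* lost its call without replicate 2 of the mutant (adjusted p = 0.107). *PDC1* had a log FC of -0.58 without replicate 1 of the wild type and of -0.28 without replicate 2, and passed in both cases (adjusted p = 0.00438 and 0.0361).

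At the last step 0 of 6 alcohol dehydrogenase genes passed in limma, against 26.7% of all features. At an unadjusted p under 0.05 in limma 2 were lower, where 1307 of 6226 features were lower and 1313 higher. *ADH1*, which forms most of the ethanol, had 15.78 and 15.82 in the wild type against 15.68 and 15.71 in the mutant, a log FC of -0.10 (SE 0.07, adjusted p = 0.327). *ADH2*, the glucose-repressed enzyme that oxidises ethanol, had 6.33 and 6.64 against 6.11 and 6.16, with 10.7% to 15.7% of the probes of an array below it. Its log FC was -0.35 (SE 0.12, adjusted p = 0.0882). *ADH5* had 9.88 and 10.30 against 9.58 and 9.71, a log FC of -0.44 (SE 0.15, adjusted p = 0.0849). In the other direction, *SFA1*, which acts on formaldehyde and long-chain alcohols, had 11.84 and 12.16 against 12.25 and 12.36, a log FC of 0.31 (SE 0.12, adjusted p = 0.123). The strains did not overlap in these genes, nor in *ADH4*, known from zinc shortage, which lay between 6.41 and 6.50 with a log FC of 0.06 (SE 0.07). Of all features, 35.8% were lower and 33.7% higher without overlap. *ADH3*, the mitochondrial enzyme, overlapped at 12.30 and 12.51 against 12.38 and 12.48 (log FC 0.03, SE 0.10). The ratio to *ADH1* was higher by 0.41 (SE 0.14) in *SFA1* and was lower by 0.34 (SE 0.19) in *ADH5* and by 0.24 (SE 0.14) in *ADH2*, with the strains apart in each. The wild-type arrays differed by 0.31 in *ADH2*, 0.41 in *ADH5* and 0.31 in *SFA1*. *ADH2* and *ADH5* passed without replicate 1 of the wild type, at log FC of -0.50 (adjusted p = 0.00620) and -0.65 (adjusted p = 0.00442), and *SFA1* without replicate 2, at 0.46 (adjusted p = 0.00808). With the other wild-type array left out instead, the log FC was -0.19 in *ADH2* (adjusted p = 0.0987), -0.24 in *ADH5* (adjusted p = 0.0811) and 0.15 in *SFA1* (adjusted p = 0.216).

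**Figure D3:**
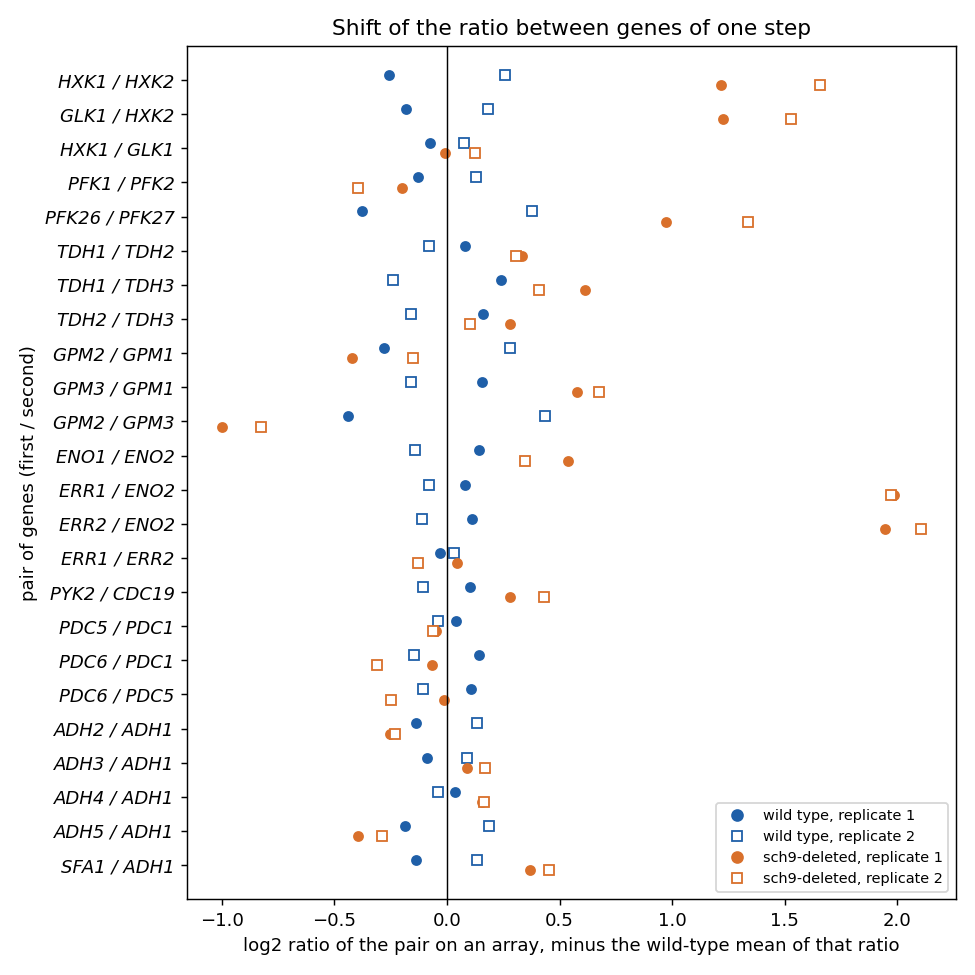
Log2 ratio of the first to the second gene of each of 24 pairs on each array, shown as the distance from the mean of the wild type, with wild-type arrays in blue, sch9-deleted arrays in orange, filled circles for replicate 1 and open squares for replicate 2. The ratios of *ERR1* and *ERR2* to *ENO2* and of *HXK1* and *GLK1* to *HXK2* lie farthest to the right, by 1.38 to 2.02 in the mean of the mutant.

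Over the 24 pairs of genes of one step, the strains did not overlap in 18. The ratio of the first to the second gene was higher in the mutant in 13 of these and lower in 5. Over single features 35.8% were lower and 33.7% higher without overlap. A single intensity is another measure than a ratio, and whether other pairs of genes give such a count was not tested. With 1 array left out the difference ranged from -0.43 to -0.17 for *PFK1* to *PFK2*, from 0.27 to 0.75 for *TDH1* to *TDH3*, from -1.35 to -0.47 for *GPM2* to *GPM3*, from -0.38 to -0.11 for *ADH2* to *ADH1* and from -0.53 to -0.15 for *ADH5* to *ADH1*. That of *HXK1* to *HXK2* ranged from 1.18 to 1.69, and that of *ERR1* to *ENO2* from 1.90 to 2.06. All exact permutation p-values of the 24 pairs were at or above 0.333, the smallest that this design allows. The pairs share genes and are not independent of each other.

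The genes with the brightest probes had small log FC, apart from *PDC1*. The mean log2 intensity was above 15, a limit chosen after the values were seen, in 9 of the 33 genes: *FBA1*, *TPI1*, *TDH1*, *PGK1*, *GPM1*, *ENO1*, *CDC19*, *PDC1* and *ADH1*. Their log FC lay between -0.43 and 0.02, and 0 of the 9 passed, with *PDC1* nearest to the threshold. Of all 30 features above 15, 2 passed, or 6.67%, with a log FC of at most 0.43 in size. Between 12 and 15, by contrast, 41.0% of 229 features passed and log FC reached 3.04 in size. The highest value of an array was 15.94 to 15.95. Quantile normalisation gives every array nearly the same set of values, so that any gene, bright or dim, moves only by changing its rank. Whether this bears on the log FC of the brightest probes was not tested. By the authors' methods, the voltage of the scanner laser was chosen so that signals would not saturate. Spots at the limit of the scanner were not marked in the values used here, and saturation was not tested. Between 12 and 15, 3 of 9 of the 33 genes were lower and 1 higher, against 44 and 50 of 229 features. At or below 12, 5 of 15 were lower and 3 higher, against 709 and 860 of 5967 features. Partners of a step can lie on both sides of 15, such as *TDH1* with *TDH3* or *ENO1* with *ENO2*. Whether brightness bears on the shift of their ratios was not tested.

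**Figure D4:**
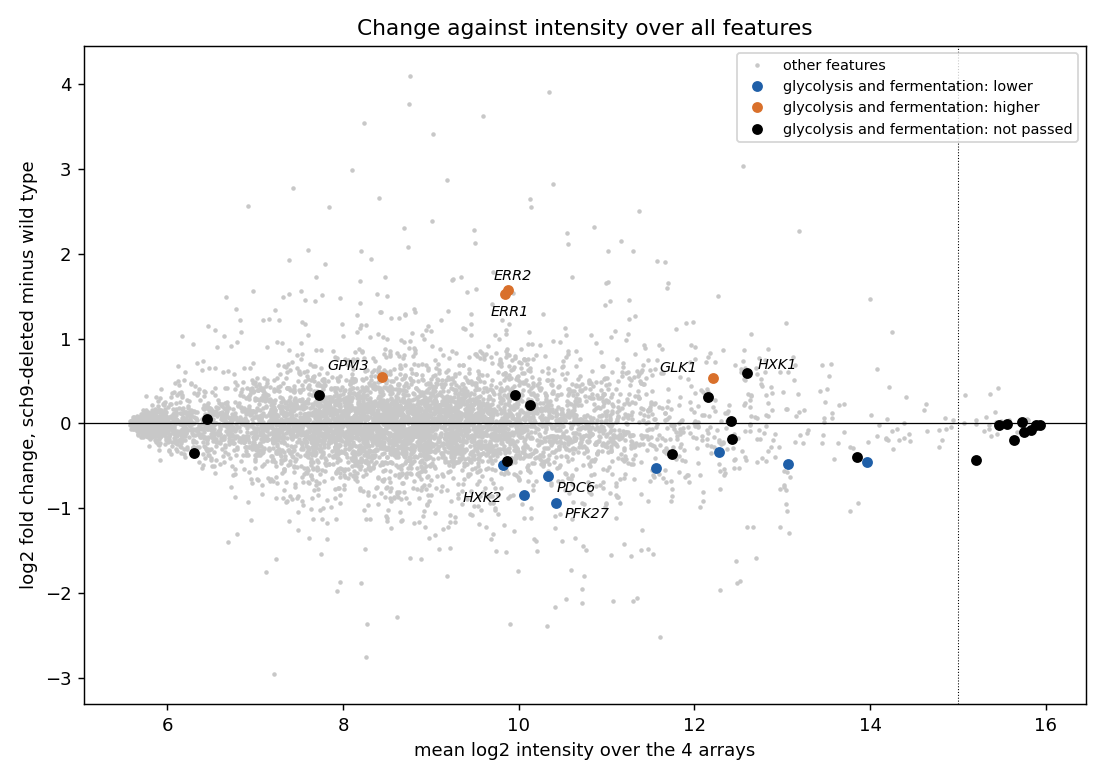
Log FC (vertical axis, sch9-deleted minus wild type) against the mean log2 intensity over the 4 arrays for the 33 genes, in colour or black, and all other features, in grey. The 9 genes to the right of the dotted line at 15 have log FC between -0.43 and 0.02, where the 30 features of that range reach at most 0.43 in size.

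Enzymes next to the pathway were taken from a list of 12, of which 8 were found by name. Not found were *ERR3*, which belongs with *ERR1* and *ERR2*, and *ADH7*, *BDH2* and *YLR345W*. In this list 1 was lower, 3 were higher and 4 did not pass, or 12.5% lower and 37.5% higher, against 12.1% and 14.6% of all features. *BDH1*, butanediol dehydrogenase, had 11.99 and 12.24 in the wild type against 13.17 and 13.19 in the mutant and was up-regulated at a log FC of 1.06 (SE 0.10, adjusted p = 0.00376). *PCK1*, phosphoenolpyruvate carboxykinase of gluconeogenesis, had 6.84 and 7.06 against 7.74 and 7.90 and was higher at 0.87 (SE 0.11, adjusted p = 0.00672). *FBP1*, the phosphatase that opposes phosphofructokinase in gluconeogenesis, had 7.71 and 7.73 against 8.02 and 7.97 and was higher at 0.27 (SE 0.07, adjusted p = 0.0436). The lower one was *ADH6*, an NADPH-dependent alcohol dehydrogenase, with 11.40 and 10.38 against 9.69 and 9.33. It was down-regulated at a log FC of -1.38 (SE 0.34, adjusted p = 0.0388) beside a distance of 1.02 between the wild-type arrays. *EMI2*, a paralogue of *GLK1*, had 11.68 and 12.12 against 11.59 and 11.64 and a log FC of -0.28 (SE 0.15, adjusted p = 0.221). *ADH6* and *FBP1* did not pass without either mutant array (adjusted p from 0.0757 to 0.183 and from 0.288 to 0.299), nor *PCK1* without replicate 2 of the mutant (adjusted p = 0.0642). The log FC of *ADH6* was -0.87 when wild-type replicate 1 was left out and -1.90 when replicate 2 was. *ADH6* also missed the threshold with robust hyperparameters (adjusted p = 0.0502), and *FBP1* with the slide position as a covariate (adjusted p = 0.108). *MAE1*, malic enzyme, had 11.45 and 10.46 against 10.03 and 9.71, and its log FC of -1.09 (SE 0.33, adjusted p = 0.0623) passed with the slide position as a covariate (adjusted p = 0.0418) and without either wild-type array (adjusted p = 0.0211 and 0.000896). *EMI2* passed at -0.50 (adjusted p = 0.00626) without replicate 1 of the wild type.

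Of 13 genes of transcription factors and other regulators that act on these enzymes, 6 were higher, 1 was lower and 6 did not pass, or 46.2% higher and 7.69% lower, against 14.6% and 12.1% of all features. *GCR1*, the activator of glycolytic genes, had 11.05 and 11.10 in the wild type against 10.61 and 10.72 in the mutant and was lower at a log FC of -0.41 (SE 0.08, adjusted p = 0.0202). Its partner gene *GCR2* had a log FC of 0.12, and *TYE7*, another activator, of -0.13. *RAP1*, which binds glycolytic and ribosomal protein promoters, had 8.03 and 7.95 against 8.69 and 8.77 and was higher at 0.74 (SE 0.08, adjusted p = 0.00455). The activators of glucose-repressed genes were higher as well. *ADR1*, which activates *ADH2*, had 7.78 and 7.81 against 8.72 and 8.90 and was up-regulated at a log FC of 1.01 (SE 0.09, adjusted p = 0.00272). *CAT8*, which activates gluconeogenic genes, had 8.20 and 8.35 against 9.23 and 9.26, a log FC of 0.97 (SE 0.08, adjusted p = 0.00269). The stress factor gene *MSN4* rose by 0.73 (SE 0.10, adjusted p = 0.00909), *MIG1*, a repressor that acts in glucose repression, by 0.33 (adjusted p = 0.0365) and *HOT1* by 0.29 (adjusted p = 0.0471). *MSN2*, the paralogue of *MSN4*, had 9.88 and 9.27 against 9.38 and 9.36 and a log FC of -0.20 (SE 0.20, adjusted p = 0.494), which was 0.10 without wild-type replicate 1 and -0.51 (adjusted p = 0.00398), passing as lower, without replicate 2. *PDC2*, an activator of *PDC1* and *PDC5*, had a log FC of 0.06. Without either mutant array *GCR1*, *HOT1* and *MIG1* did not pass, with adjusted p from 0.144 to 0.314, nor did *RAP1* (adjusted p = 0.0630) and *MSN4* (adjusted p = 0.0812) without replicate 2 of the mutant. *HOT1* also missed the threshold without replicate 1 of the wild type (adjusted p = 0.0560), and with median centring (adjusted p = 0.0545) or another quantile normalisation (adjusted p = 0.0506). With the slide position as a covariate *GCR1*, *HOT1* and *MIG1* had adjusted p = 0.0564, 0.0836 and 0.0753.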

How the data were processed

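Cy3-labelled RNA of 4 cultures was hybridised to one-colour Agilent yeast arrays, all on slide 1. The deposited values are log2 intensities, which the authors extracted with GenePix and quantile-normalised with limma; the submitters' processing notes name R 2.14.2. For background and replicate spots the handling was not given in the sources used here. The log2 scale was inferred from the values. Probes were named by the array annotation, which gives 1 symbol for 4061 of 6227 probes, and synonyms were matched through RefSeq (assembly R64). No sequences were used. Probes of 1 gene were averaged. Strains were compared by lmFit and eBayes of limma 3.58.1 under R 4.3.3 (prior degrees of freedom 3.29) with Benjamini-Hochberg adjustment, and the fit was tested on simulated data. Ratios between isoenzymes were compared with an exact two-sided permutation test. Every one of the 33 genes is named, and of the other lists those that passed and the partners needed beside them. Genes and lists were chosen with earlier results of these data known. Alternatives were 13 refits, which changed the scaling, the filter on dim features, eBayes, the probe of a gene, the covariates or the arrays, and other thresholds. The labels do not say that the replicates came from separate precultures. Figures used Python 3.11.15 and matplotlib 3.10.9.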

Additional observations from a re-analysis of the deposited data

How the results depend on the processing

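Of the 12 calls among the 33 genes, those of *HXK2*, *ERR1* and *ERR2* were kept under all 13 refits, and 0 of the 12 turned in direction. The refit on the brightest probe could not change the values of the 33 genes, as each has 1 probe. The number of lower genes among the 33 ranged from 1 to 14 and that of higher genes from 2 to 7 when each array was left out. When the arrays of 1 strain leave a single one, that array is assumed to vary like those of the other strain. With the replicate number as a block (replicate block) 13 of the 33 genes were lower and 8 higher, the calls gained being those of *HXK1*, *PGI1*, *FBP26*, *GPM2*, *PYK2*, *PDC1*, *ADH2*, *ADH5* and *SFA1* (adjusted p from 0.00102 to 0.0326), and over all features 1311 were lower against 753 and 1238 higher against 912. The differences between replicates 1 and 2 correlated between the strains at r = 0.53 across all features, which are not independent, and nothing in the labels pairs the cultures. With the slide position as a covariate 4 of the 33 genes were lower, and 445 features were lower and 586 higher. At a log FC beyond 1 as well, 0 of the 33 genes were lower and 2 higher. At an unadjusted p 1307 features were lower. With treat against a log2 fold change of 0.5, 34 features were down-regulated, against 102. With each array left out, 37 to 206 features were down-regulated, 123 to 151 up-regulated, 58 to 1268 lower and 179 to 1313 higher.

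The sign turned in genes whose log FC was near 0. With scaling to the 75th percentile *FBA1* had a log FC of 0.00180, *TDH1* of 0.00218 and *ENO1* of 0.00582, with another quantile normalisation *TDH1* had 0.0182 and *ENO1* 0.00624, and with the slide position as a covariate *PGK1* had -0.0205 and *CDC19* 0.00904. With an array left out the log FC ranged from -0.0436 to 0.0135 in *FBA1*, from -0.0749 to 0.0456 in *TDH1*, from -0.0516 to 0.0887 in *PGK1*, from -0.0581 to 0.0360 in *ENO1*, from -0.0783 to 0.0416 in *CDC19* and from -0.0815 to 0.135 in *ADH3*. Outside the pathway it ranged from -0.213 to 0.00444 in *PYC1*, from -0.00729 to 0.130 in *PDC2* and from -0.513 to 0.103 in *MSN2*. The cause of these changes was not tested. *ADH2* and *ADH4* lie among the dimmest features and were not tested when these were left out.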
